A study of Mus musculus with 8 samples.

Results

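Potassium channel genes were followed in sorted somatostatin (SST) neurons of the tuberal nucleus (TN) of female and male mice. The members are all protein-coding genes whose symbol starts with Kcn, 94 of the 35968 genes to which transcripts were joined, and they comprise the pore-forming subunits of the potassium channels and several of their auxiliary subunits. RNA was sequenced from 4 female and 4 male mice, 1 library per mouse. Every mouse was heterozygous for *Sst-Cre*, in which Cre recombinase is expressed from the *Sst* locus, on a C57BL/6J background, and every mouse received an AAV carrying a Cre-dependent tdTomato (AAV2-flex-tdTomato) into the TN, so that both sexes share the allele, the virus and the label. Females were gonadally intact and cycling, with the cycle stage of each not given, and ages are not given in the labels used here. Red fluorescence marks cells of the injected area that took up the virus and expressed Cre. The sort is thus defined by Cre expression and injection site and not by the TN alone.

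Potassium channels let potassium leave the cell, which pulls the membrane potential down and ends or prevents firing. Pore subunits differ in what opens them. The Kv families (*Kcna*, *Kcnb*, *Kcnc*, *Kcnd*) open on depolarization, *Kcnq* subunits form the slow M-channels that acetylcholine and other transmitters close, *Kcnh* subunits form the EAG, ERG and ELK channels, and *Kcnma1*, *Kcnn* and *Kcnt* channels respond to calcium or sodium inside the cell. Inward rectifiers (*Kcnj*) hold the resting potential and include the G protein-gated GIRK channels and the ATP-sensitive KATP channels of nutrient-sensing hypothalamic neurons, whereas 2-pore channels (*Kcnk*) carry leak. Modifier subunits (*Kcnf*, *Kcng*, *Kcns*, *Kcnv*) form channels only together with Kv2 subunits, and auxiliary subunits (*Kcnab*, *Kcnip*, *Kcnmb*, *Kcne*) change gating or trafficking of a pore made by others.

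The members were grouped by symbol alone. Those of the pore-forming and modifier classes share a short run of codons for the selectivity filter, the loop that coordinates potassium ions. In the longest coding sequence of each gene (GENCODE transcripts, mm10), an in-frame run of codons for threonine or serine, then valine, isoleucine or leucine, then glycine, then tyrosine, phenylalanine or leucine, then glycine, was found in 77 of 77 members of the pore-forming and modifier classes and in 0 of 17 members of the auxiliary class. Across all 21562 protein-coding genes with a coding sequence, 290 (1.34%) held such a run. Of the 14 2-pore genes, 12 held it in both pore loops. The filter codons are shown in capitals, with flanking coding bases in lower case, for members of the pore classes that the results below turn on.
Kcnq3: ctggccACCATTGGTTATGGAgacaag
Kcna2: atgacaACTGTAGGCTATGGAgacatg
Kcnc1: atgacgACACTGGGCTATGGAgacatg
Kcng1: atgacaACCGTAGGCTACGGAgacatg
Kcnh3: ctcaccAGTGTGGGCTTCGGCaacgtg
Kcnma1: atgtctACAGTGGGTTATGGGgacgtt
Kcnj6: gaaaccACCATCGGTTATGGCtaccgg
Kcnk2 first pore loop: atcacaACCATAGGATTTGGAaacatc
Kcnk2 second pore loop: ctgacgACCATTGGATTTGGAgactac
These are coding-strand sequences, and the capitals mark the filter codons. Those of *Kcnq3* lie at chr15:66023731-66023745 (minus strand, exon 6). The filter of *Kcnc1* is at chr7:46427973-46427987 (plus strand, exon 2) and that of *Kcng1* at chr2:168262641-168262655 (minus strand, exon 3). The filter of *Kcna2* is at chr3:107105224-107105238 (plus strand, exon 3), that of *Kcnma1* at chr14:23528413-23528427 (minus strand, exon 8), that of *Kcnh3* at chr15:99232929-99232943 (plus strand, exon 8) and that of *Kcnj6* at chr16:94832777-94832791 (minus strand, exon 3). In *Kcnk2* the codons of the first loop are split by an intron, whereas those of the second lie together at chr1:189256581-189256595 (minus strand, exon 5).

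Totals ran from 7.83 to 17.6 estimated counts per mouse, in units of 1000000, so that 3 counts, taken as the limit of detection, corresponded to 0.148 to 0.458 CPM (counts per 1000000, after TMM scaling). The 4 Y-linked genes used as a check were each called higher in males, as the labels require. Reads assigned to *Lars2*, the mitochondrial leucyl-tRNA synthetase gene, held 9.34% (female 3) to 34.4% (female 2) of a mouse's counts. Where these reads come from was not tested. TPM is scaled to a total that includes them, so ranges of TPM over mice also carry this difference. *Sst* itself stood at 292 to 526 CPM in females and 301 to 369 CPM in males. Other cells were present in the sort: 6 microglial markers summed to 233 to 1221 CPM in females and 509 to 2465 CPM in males, 5 astrocyte markers to 151 to 457 and 385 to 554 CPM, and 6 oligodendrocyte-lineage markers to 462 to 1837 and 768 to 1751 CPM. Summed CPM of 8 neuronal markers was 2924 to 3369 in females and 2293 to 2995 in males. Nothing in the labels says that the mice of a sex shared a litter or a day, and p-values measure the spread between mice.

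Most of the family was detected. Mean TPM (transcripts per 1000000), a level that is divided by transcript length and so allows genes to be compared, was at least 1 for 69 of the 94 members, and 64 members had at least 10 counts in every mouse. Among the most abundant members was *Kcnab2*, a cytoplasmic beta subunit of Kv1 channels, at a mean of 107 TPM (75.5 to 151 over the 8 mice). Lower than it came *Kcnmb4*, the neuronal beta subunit of BK channels, at 70.9 TPM, *Kcnk2*, the mechano- and lipid-sensitive leak channel TREK-1, at 68.5 TPM, and *Kcnip2*, a calcium-binding partner of Kv4 channels, at 62.9 TPM. *Kcnc1* (Kv3, fast repolarization) at 51.4 TPM, *Kcnd3* (Kv4, A-type current) at 49.3 TPM, *Kcnma1* (the BK pore) at 46.8 TPM and *Kcnt1* (sodium-activated) at 42.5 TPM were also abundant, and the ranges over mice of these members overlapped from one to the next in this order.

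**Figure D1:**
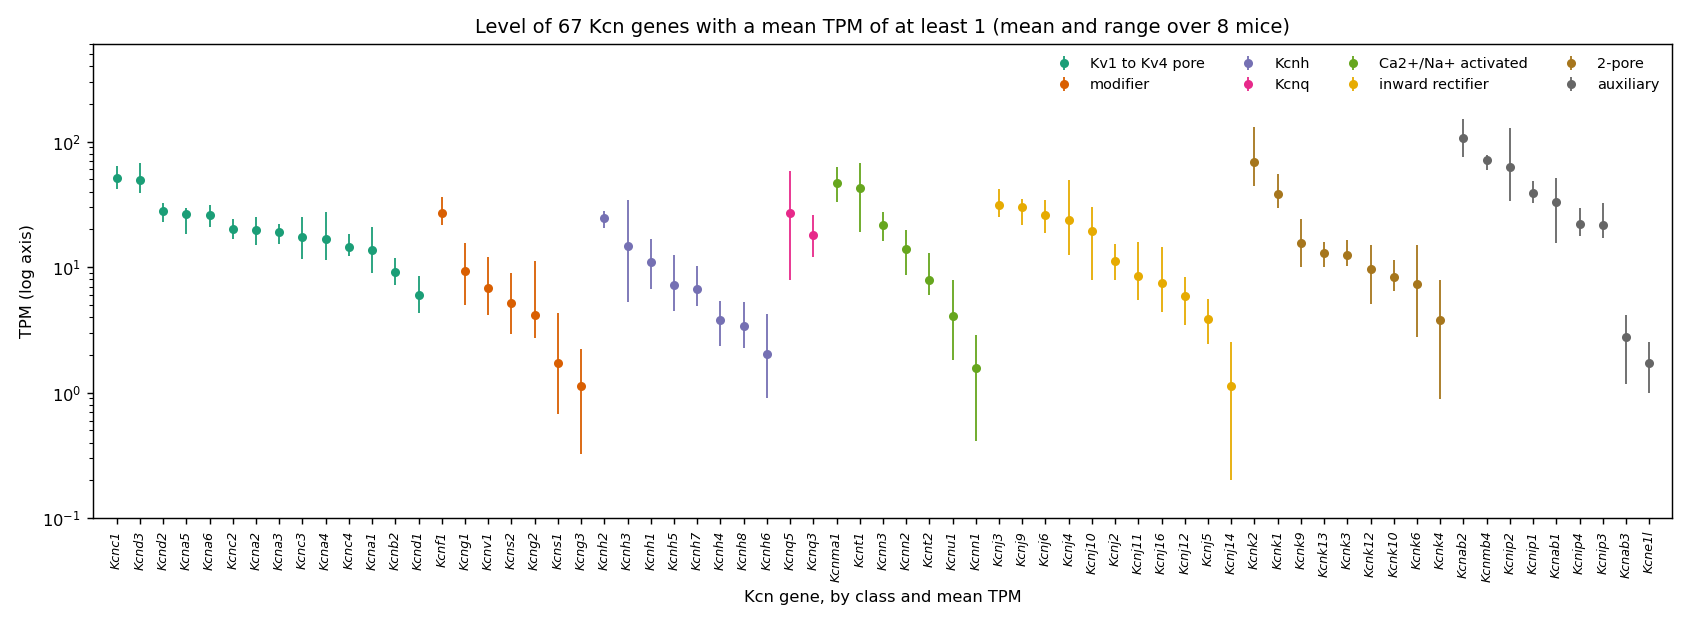
Mean TPM of 67 Kcn genes at or above 1 TPM (log axis), ordered by class and level, with bars from the lowest to the highest of the 8 mice. *Kcnab2*, *Kcnmb4*, *Kcnk2* and *Kcnip2* stand highest of those drawn, and every class has members at 10 TPM or above.

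Several of these levels depend on which transcripts are counted. *Kcnmb4* had 48.3% of its counts on its coding transcript, and 54.2 of its 70.9 TPM came from a noncoding transcript of 517 bases. On coding transcripts alone *Kcnmb4* stood at 15.1 TPM, rank 29 of the members, and *Kcnt1* at 16.5 TPM, rank 27. *Kcnk2* stood at 39.7, *Kcnip2* at 58.8 and *Kcnab2* at 56.1 TPM. *Kcna6* had 22.7% and *Kcnn3* 43.3% of their counts on coding transcripts. For 58 of the 72 members with enough counts to be tested, over 90% of counts were on coding transcripts, and for 8 under 75%. Exons of *Kcna6*, *Kcnj3*, *Kcnmb4* and *Kcnk2* are overlapped on the other strand over 39.6%, 31.1%, 31.5% and 12.2% of their length. The strand setting of the authors' counting is not given in the sources used here, so part of the reads of these genes may belong to the gene opposite.

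By class, Kv1 to Kv4 pore genes held 24.1% of the summed Kcn TPM and auxiliary genes 24.2%. The 2-pore genes held 12.1%, inward rectifiers 11.5%, *Kcnq* genes 10.3%, calcium- or sodium-activated genes 9.26%, *Kcnh* genes 4.88% and modifiers 3.75%. On coding transcripts alone Kv1 to Kv4 genes held 27.5%, auxiliary genes 19.1%, inward rectifiers 14.2%, calcium- or sodium-activated genes 7.38% and modifiers 4.58%. The 2-pore genes held 12.1% of it, *Kcnq* genes 9.93% and *Kcnh* genes 5.21%. *Kcnk2* alone made up 68.5 of the 178 TPM of the 2-pore class. The *Kcnq* share was 11.8% ± 1.61 (SD, n = 4) in females and 8.67% ± 1.12 in males, and the 2-pore share was 10.1% ± 1.15 in females and 14.2% ± 1.42 in males. In both classes the sexes did not overlap. Shares of Kv1 to Kv4 genes (23.6% ± 0.389 in females, 24.5% ± 0.264 in males) and of calcium- or sodium-activated genes (9.82% ± 0.524 and 8.70% ± 0.382) did not overlap either, by smaller gaps. These shares are descriptions of the composition and were not tested.

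**Figure D2:**
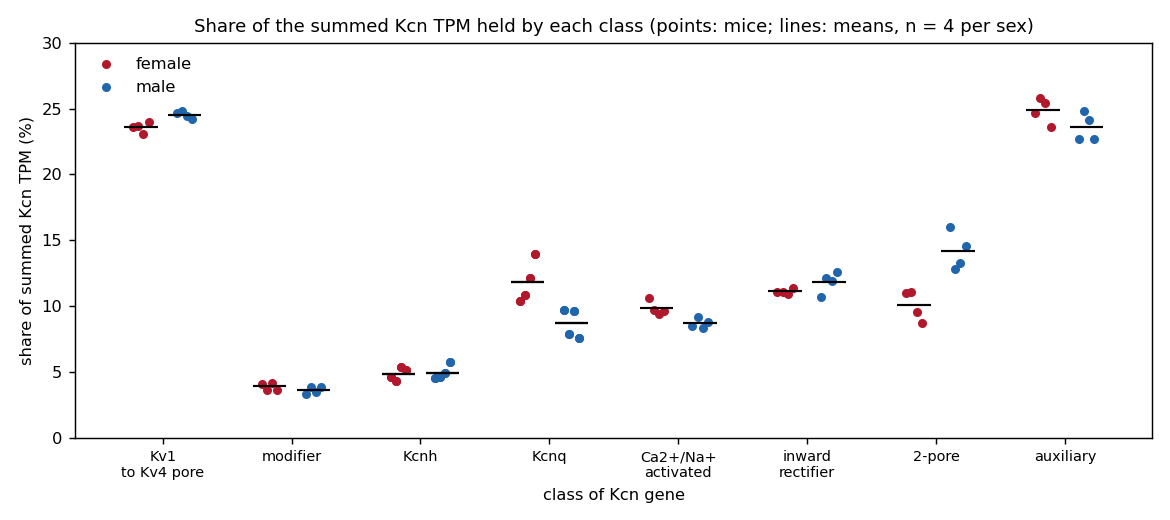
Share of the summed Kcn TPM (percent) held by each class in each mouse (points) with the mean of each sex (lines, n = 4). *Kcnq* genes held 11.8% in females against 8.67% in males, and 2-pore genes 10.1% against 14.2%, whereas the other classes differed by less.

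Whether the sexes differ in potassium channel expression was asked with edgeR's quasi-likelihood test over all 15194 genes with enough counts, 72 of the 94 members among them. *Kcnq5*, an M-channel subunit, was the single member called at an adjusted p under 0.05, higher in females. Over all genes tested, 24 (0.158%) were called, 0.112% higher in females and 0.0461% higher in males. At an unadjusted p under 0.05 stood 28 members (20.5% of all genes), 24 of them higher in females (9.86% of all genes) and 4 higher in males (10.7%). The sexes did not overlap in 16 members, each with every female above every male, where 6.48% of all genes tested separated that way. No member had every male above every female, where 3.94% of all genes did. The median log2 fold change of the 72 members, female over male, was 0.25, and that of all genes tested was -0.0043. A log2 fold change above 0 was seen in 46 of 72 members and in 49.4% of all genes.

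The count of members called rested on the test and on single mice. DESeq2 called 14 members, 13 higher in females and 1 higher in males, where it called 6.92% of all genes (3.86% and 3.07%). Without female 1 edgeR called 7 members (2.67% of all genes were called), and without male 1 it called 5 (2.65%). Neuronal markers leaned the same way: 8 of 8 had a log2 fold change above 0 (median 0.15), and *Snap25*, *Syt1* and *Rbfox3* did not overlap between the sexes, while 0 of 6 microglial, 0 of 5 astrocyte and 0 of 6 oligodendrocyte-lineage markers were above 0 (medians -1.32, -0.77 and -0.90). By edgeR 0 of these markers were called, with 3 neuronal, 4 microglial, 1 astrocyte and 3 oligodendrocyte-lineage markers at an unadjusted p under 0.05. Markers of neurons in 2 neighbouring nuclei leaned both ways. Of 6 arcuate nucleus markers 4 had an unadjusted p under 0.05 (20.5% of all genes). *Pomc* (log2 fold change -1.11, SE 0.35), with every male above every female, and *Npy* (-1.15, SE 0.49) leaned to males, and *Tac2* (1.41, SE 0.51) and *Ghrh* (0.63, SE 0.27) to females. Of 6 ventromedial nucleus markers 1 did, *Fezf1* (log2 fold change 1.92, SE 0.65), at 23.2 to 51.6 CPM in females and 3.18 to 22.9 CPM in males. By edgeR 0 of these 12 were called, and their part in the difference of *Kcnq5* or of other members was not tested. The mean level of the 8 neuronal markers was also used as a covariate, chosen after seeing the data. In that fit the median log2 fold change of the members was 0.13, and edgeR called 0 of them and 3 of all 15194 genes. At an unadjusted p under 0.05 stood 10 members, with the share of all genes not computed for that fit. The covariate itself leaned with sex, at a mean log2 CPM of 8.13 to 8.31 in females and 7.81 to 8.18 in males. In bulk RNA, fewer cells of a type and less RNA per cell cannot be told apart, and the part of neuronal content in the members' differences was not tested further.

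**Figure D3:**
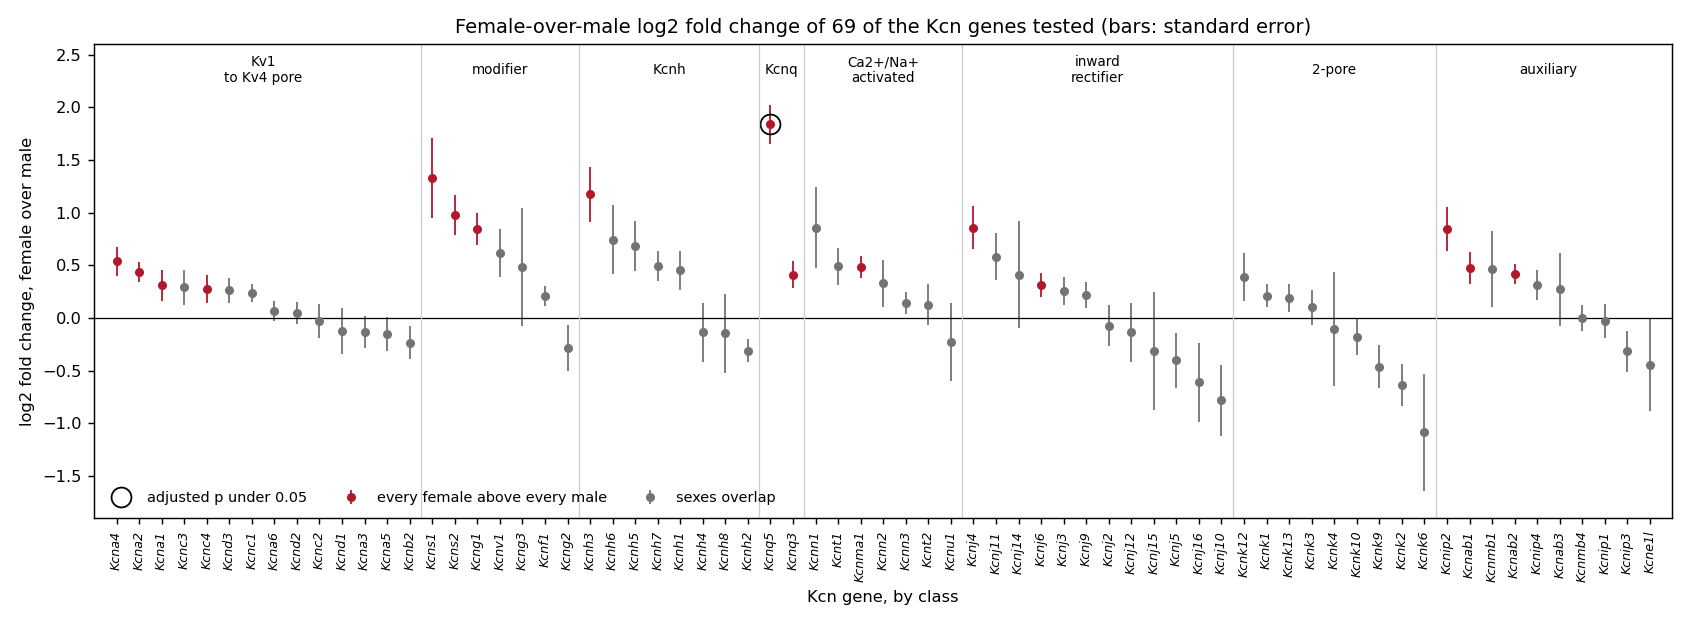
Log2 fold change, female over male, of 69 of the 72 Kcn genes tested by edgeR, with standard errors, ordered by class. Red points mark the 16 genes in which every female lay above every male, and the circle marks *Kcnq5*, the 1 gene with an adjusted p under 0.05, at 1.84.

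*Kcnq3* and *Kcnq5* encode subunits of the M-channel, a slow potassium conductance that limits repeated firing and closes when Gq-coupled receptors deplete membrane PIP2. *Kcnq5* (ENSMUSG00000028033.16, chr1:21398403-21961942, minus strand) stood at 96.9, 110.4, 136 and 163 CPM in females 1 to 4 and at 40.0, 26.7, 39.2 and 35.8 CPM in males 1 to 4. The lowest female was thus at more than double the level of the highest male. The log2 fold change was 1.84 (SE 0.19), with an edgeR adjusted p of 0.00655 over all genes tested. Leaving out each mouse in turn gave 1.69 to 1.95, with adjusted p between 0.00516 and 0.0463. Each of the 2 blocks of counts deposited for every mouse gave the call on its own, at 1.81 and 1.86, and so did coding transcripts alone, at 1.88. With the neuronal markers as a covariate the log2 fold change was 1.43 (SE 0.25), at an adjusted p of 0.260. A block for mice of the same number gave 1.83 (SE 0.16), at an adjusted p of 0.0683, so both of these fits ended the call. Over all genes the covariate fit called 3 and the block fit 1, where the main fit called 24.

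*Kcnq3*, another M-channel subunit, was not called by edgeR. It stood at 108, 111, 115 and 121 CPM in females and at 91.8, 63.6, 87.9 and 99.0 CPM in males, with no overlap, and its log2 fold change was 0.41 (SE 0.13, edgeR adjusted p = 0.146). DESeq2 called it, at an adjusted p of 0.0477. *Kcnq1*, the cardiac and epithelial member, had 19 counts in all and was not tested.

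Per length, the order of *Kcnq5* and *Kcnq3* differed between the sexes as well, a description with no test. In females *Kcnq5* stood above *Kcnq3* in every mouse (42.6 ± 14.2 against 20.9 ± 4.93 TPM, SD, n = 4), and in males below it in every mouse (11.3 ± 2.36 against 14.9 ± 2.07 TPM). This order within a mouse does not depend on the scaling between mice. It was taken over all transcripts, with 74.3% of *Kcnq5* TPM and 78.5% of *Kcnq3* TPM on coding ones. The order by mouse on coding transcripts alone was not examined.

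**Figure D4:**
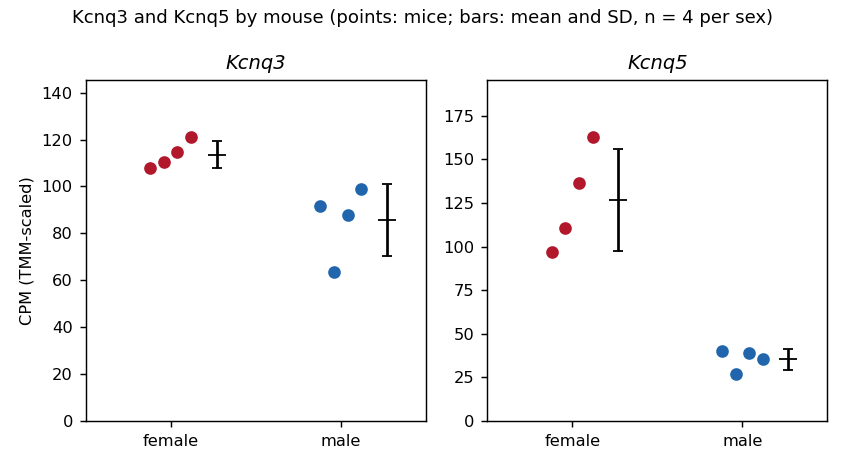
TMM-scaled CPM of *Kcnq3* and *Kcnq5* in each of 4 females and 4 males (points), with mean and SD. *Kcnq5* ran from 96.9 to 163 CPM in females and from 26.7 to 40.0 CPM in males, and *Kcnq3* from 108 to 121 and from 63.6 to 99.0 CPM.

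By transcript, 71.1% of the *Kcnq5* counts fell on the coding transcript Kcnq5-201, 16.4% on the coding Kcnq5-203 and 11.1% on Kcnq5-207, annotated as a target of nonsense-mediated decay. Kcnq5-201 stood at 66.4, 82.1, 102 and 104 CPM in females and at 30.8, 23.3, 19.9 and 31.1 CPM in males, without overlap. Kcnq5-207 stood at 3.86 to 22.6 CPM in females and 3.35 to 6.01 CPM in males, which overlap. In all, 88.5% of the counts were on coding transcripts, and exons of *Kcnq5* are overlapped by another gene on the opposite strand over 3.08% of their length.

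*Kcnq5* has 2 annotated starts in RefSeq (GRCm38.p6). The 250 bases before 1 of them, chr1:21961943-21962192 on the minus strand, are shown because *Kcnq5* is the member called. Those before the other start, chr1:21962651-21962900, are not printed.
Kcnq5 promoter: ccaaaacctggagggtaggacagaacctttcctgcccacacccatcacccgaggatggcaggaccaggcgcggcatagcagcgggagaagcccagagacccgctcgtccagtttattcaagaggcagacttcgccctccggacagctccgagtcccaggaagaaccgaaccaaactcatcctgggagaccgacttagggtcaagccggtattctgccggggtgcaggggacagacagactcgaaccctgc
The printed bases have no capitals, which would mark a GC box. None of 4 motifs lay in either window of *Kcnq5*, from 250 bases before to 50 after the start, searched on both strands. The motifs were the full palindromic estrogen response element, the cyclic AMP response element TGACGTCA, the GC box GGGCGG and the TATA box TATAAA. In RefSeq's table, 69 of the 94 members were matched, with 94 windows. The estrogen response element was in 0 of these 94 windows and in 0.07% of all 32851, and the cyclic AMP response element in 0 and in 1.79%. The GC box was in 47.9% of the members' windows and 35.7% of all windows, and the TATA box in 5.32% and 13.6%. A match or its lack describes these letters in these windows.

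Among the Kv1 to Kv4 pore genes, which set the shape and spacing of action potentials, 10 of 15 tested had a log2 fold change above 0 (median 0.24). By edgeR 0 were called, with 4 at an unadjusted p under 0.05 (20.5% of all genes), and DESeq2 called 2 (6.92%). *Kcna2*, a Kv1 subunit of axons, stood at 128, 118, 128 and 136 CPM in females and at 97.8, 79.6, 94.7 and 105 CPM in males, with no overlap. This gave a log2 fold change of 0.44 (SE 0.09), at an edgeR adjusted p of 0.0798. *Kcna4*, an A-type Kv1 subunit, stood at 45.1 to 65.3 CPM in females and 32.4 to 42.5 CPM in males (log2 fold change 0.54, SE 0.14). DESeq2 called both *Kcna2* and *Kcna4*. The axonal subunit *Kcna1* and the Kv3 subunit *Kcnc4* also did not overlap, but by narrow gaps, from 27 to 27.6 CPM in *Kcna1* and from 27.3 to 27.5 CPM in *Kcnc4*.

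The abundant Kv genes *Kcnc1* and *Kcnd3* were not called. *Kcnc1* had a log2 fold change of 0.24 (SE 0.09) and *Kcnd3* 0.26 (SE 0.12), with edgeR adjusted p of 0.191 and 0.257. In both, males and females overlapped, and with the neuronal covariate *Kcnd3* stood at a log2 fold change of -0.05. *Kcnd2*, the other main Kv4 subunit, was at 28.2 TPM with a log2 fold change of 0.05 (SE 0.10), and the Kv3 subunit *Kcnc2* at 20.1 TPM with -0.03 (SE 0.16). *Kcna5*, the Kv1 gene with the highest TPM (26.6), and *Kcnb2*, a Kv2 gene, stood at a log2 fold change of -0.16 (SE 0.16) and -0.24 (SE 0.16). *Kcna7* (11 counts) and *Kcna10* (4 counts) were at or near the detection limit.

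Modifier subunits, silent alone and able to shift the gating of Kv2 channels, had the highest median log2 fold change of any class, 0.62 over the 7 of 10 tested, with 6 of 7 above 0 (49.4% of all genes) and 3 without overlap, females higher (6.48% of all genes). *Kcng1* stood at 27.9, 23.7, 31.2 and 22.1 CPM in females and at 15.8, 12.1, 15.6 and 15.1 CPM in males. *Kcns2* stood at 16.1, 15.3, 22.8 and 25.3 CPM in females and at 10.7, 9.35, 11 and 9.45 CPM in males. In both genes every female lay above every male. Log2 fold changes were 0.84 (SE 0.15) for *Kcng1* and 0.98 (SE 0.19) for *Kcns2*, at edgeR adjusted p of 0.0682 and 0.0690, and both were called by DESeq2 and by edgeR without female 1 or without male 1. *Kcns1*, at 1.73 TPM, had 2.75 to 5.62 CPM in females and 1.1 to 2.06 CPM in males (log2 fold change 1.33, SE 0.38). *Kcnv1*, restricted to brain, stood at a log2 fold change of 0.62 (SE 0.23) with overlap, and *Kcnf1*, the modifier with the highest TPM (27), at 0.21 (SE 0.09).

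All 8 *Kcnh* genes were at 1 TPM or above. *Kcnh3*, an ELK channel of forebrain neurons, stood at 21.2, 20.9, 46.5 and 25.6 CPM in females and at 12.8, 11.7, 15.1 and 11.2 CPM in males, with no overlap and female 3 far above the other females. The female-over-male log2 fold change was 1.17 (SE 0.26), at an edgeR adjusted p of 0.0831, and the call was made by DESeq2 and by edgeR without female 1. *Kcnh2*, the ERG channel with the highest TPM of the group (24.6), leaned the other way, at 40.1 to 51.6 CPM in females and 49.2 to 62.5 CPM in males. The log2 fold change was -0.31 (SE 0.11, edgeR adjusted p = 0.177), whereas the other ERG genes *Kcnh6* and *Kcnh7* stood at 0.74 (SE 0.32) and 0.49 (SE 0.14). The EAG genes *Kcnh1* and *Kcnh5* stood at a log2 fold change of 0.45 (SE 0.19) and 0.69 (SE 0.24), and the ELK genes *Kcnh4* and *Kcnh8* at -0.14 (SE 0.28) and -0.15 (SE 0.38). The ERG and the ELK genes thus held both signs, and of the 8 genes edgeR called 0, with 6 at an unadjusted p under 0.05 (20.5% of all genes), and DESeq2 called 2 (6.92% of all genes), *Kcnh3* and *Kcnh7*.

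Of the channels opened by calcium or sodium, *Kcnma1*, the BK pore that repolarizes spikes and feeds the fast afterhyperpolarization, stood at 189, 192, 193 and 192 CPM in females and at 168, 123, 133 and 124 CPM in males. The females were nearly alike and all above the males. On the log2 scale the difference was 0.48 (SE 0.10), at an edgeR adjusted p of 0.0798, and without male 1, the highest male, it was 0.60 at an adjusted p of 0.0209. DESeq2 called it with all mice (adjusted p = 0.00174), and with the neuronal covariate the log2 fold change was 0.20. The sodium-activated *Kcnt1* stood at a log2 fold change of 0.49 (SE 0.17) with overlap, and *Kcnt2* at 0.13 (SE 0.19). The SK channel genes, which carry the medium afterhyperpolarization, stood at a log2 fold change of 0.86 (SE 0.39) for the sparse *Kcnn1*, 0.33 (SE 0.22) for *Kcnn2* and 0.14 (SE 0.11) for *Kcnn3*, and none was called. *Kcnu1*, best known from sperm, had 4.07 TPM, and its 173 counts are few.

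Inward rectifiers were split, with 6 of 12 tested above 0 and 6 below. *Kcnj4*, a strong rectifier of neurons, stood at 27.3, 32.1, 50.03 and 30.5 CPM in females and at 21.1, 20.1, 21 and 15.2 CPM in males, without overlap. This gave a log2 fold change of 0.86 (SE 0.20), at an edgeR adjusted p of 0.0930, and DESeq2 and edgeR without female 1 called it. The other strong rectifiers of its subfamily held both signs, with *Kcnj2*, *Kcnj12* and the sparse *Kcnj14* at a log2 fold change of -0.07 (SE 0.19), -0.14 (SE 0.28) and 0.41 (SE 0.51).

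GIRK subunits carry inhibition by GABA-B, opioid and SST receptors, and 3 of the 4 were well expressed. Means were 31.4 TPM for *Kcnj3*, 30.3 TPM for *Kcnj9* and 26.2 TPM for *Kcnj6*, with overlapping ranges, against 3.85 TPM for *Kcnj5*. *Kcnj6* stood at 36.4 to 43.4 CPM in females and 28.3 to 36.1 CPM in males, a gap of less than 1 CPM, with a log2 fold change of 0.31 (SE 0.11, edgeR adjusted p = 0.179). *Kcnj3* and *Kcnj9* stood at a log2 fold change of 0.26 (SE 0.13) and 0.22 (SE 0.12), and *Kcnj5* at -0.40 (SE 0.26). With the neuronal covariate *Kcnj3* and *Kcnj9* had the opposite sign, at -0.12 and -0.07 on the log2 scale. None of the 4 was called. The GIRK share of the summed Kcn TPM was 6.14% ± 0.212 (SD, n = 4) in females and 6.13% ± 0.372 in males.

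KATP channels close when ATP rises. Their pore gene *Kcnj11* stood at 10.4 to 15.6 CPM in females and 6.68 to 11.4 CPM in males, at a log2 fold change of 0.58 (SE 0.22, edgeR adjusted p = 0.203), while the vascular pore gene *Kcnj8* had 15 counts in all. The sulfonylurea receptor gene *Abcc8*, partner of *Kcnj11*, stood at 14.1, 14.2, 17.1 and 22.9 CPM in females and at 12.2, 8.89, 7.78 and 12 CPM in males, with no overlap. The female-over-male log2 fold change was 0.74 (SE 0.22), at an edgeR adjusted p of 0.133. DESeq2 called it at an adjusted p of 0.0387, whereas with an offset for transcript length the log2 fold change was 0.10 (SE 0.34). *Abcc9*, the receptor of cardiac and vascular KATP channels, stood at a log2 fold change of 0.13 (SE 0.47).

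The 2-pore genes, which set the resting leak, were the only class with a median log2 fold change below 0 (-0.11 over 9 tested), and none separated the sexes. *Kcnk2* stood at 50.1, 61.9, 40.8 and 40.8 CPM in females and at 99.0, 54.8, 79.1 and 67.1 CPM in males, with female 2 above the lowest male. The log2 fold change was -0.64 (SE 0.20), at an edgeR adjusted p of 0.145, and DESeq2 called it, the 1 member called higher in males. *Kcnk9*, an acid-sensitive TASK channel, stood at 68.4 to 119 CPM in females and 99.99 to 175 CPM in males (log2 fold change -0.46, SE 0.20, edgeR adjusted p = 0.237). Its close relative *Kcnk3* stood at a log2 fold change of 0.10 (SE 0.17), and *Kcnk1*, second of the class at 37.9 TPM, at 0.21 (SE 0.11). *Kcnk10*, the other TREK channel of these neurons, stood at a log2 fold change of -0.18 (SE 0.17). *Kcnk5*, *Kcnk15*, *Kcnk16* and *Kcnk18* had 3 to 15 counts each over the 8 mice.

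Of the 10 auxiliary genes tested, 6 had a log2 fold change above 0, where 49.4% of all genes did, and 3 did not overlap between the sexes, females higher (6.48% of all genes). *Kcnab2* stood at 69.8, 73.9, 92.1 and 81.2 CPM in females and at 60.1, 60.0, 57.4 and 60.6 CPM in males, without overlap. On the log2 scale the difference was 0.42 (SE 0.10), at an edgeR adjusted p of 0.0921. *Kcnip2*, partner of Kv4 channels, stood at 51.6, 62.6, 102 and 69.998 CPM in females and at 49.3, 37.4, 40.8 and 32.1 CPM in males, also without overlap (log2 fold change 0.85, SE 0.21, edgeR adjusted p of 0.10, and 0.28 with the neuronal covariate). DESeq2 and edgeR without female 1 called both. *Kcnab1* did not overlap either, by a gap of less than 1 CPM (0.47, SE 0.15). The other Kv4 partners differed in sign: *Kcnip4* stood at a log2 fold change of 0.31 (SE 0.14), *Kcnip1* at -0.03 (SE 0.16) and *Kcnip3*, also known as a transcriptional repressor, at -0.32 (SE 0.20). *Kcnmb4* stood at 21.9 ± 2.53 CPM (SD, n = 4) in females and 21.9 ± 1.28 CPM in males. Of the *Kcne* genes only *Kcne1l* was tested, at a log2 fold change of -0.44 (SE 0.44), and the other 4 had 2 to 16 counts.

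Of the members known from non-neuronal cells, some had a high correlation with the markers of those cells over the mice and others had an r near 0. *Kcnj10*, the main astrocyte and oligodendrocyte inward rectifier, stood at 21.3 to 69.6 CPM in females and 49.996 to 96.9 CPM in males, at a log2 fold change of -0.78 (SE 0.34, edgeR adjusted p = 0.235). Over the 8 mice its log2 CPM had a Pearson r of 0.90 with the log2 of the summed astrocyte markers and 0.92 with that of the microglial markers. *Kcnj16*, which joins *Kcnj10*, had an r of 0.94 with astrocyte markers. *Kcnk6* stood at 3.51 to 15.3 CPM in females and 6.84 to 29.6 CPM in males (log2 fold change -1.09, SE 0.55, edgeR adjusted p = 0.296), with an r of 0.93 with microglial markers. *Kcnk13* and *Kcna3*, both known from microglia, had an r of 0.018 and 0.032 with the same markers, at 19.2 to 22.8 and 15.4 to 23.1 CPM in females and 16.0 to 21.3 and 17.5 to 22.3 CPM in males. *Kcnn4* (45 counts) and *Kcnj13* (23 counts) were not tested. With the neuronal covariate *Kcnj10* stood at a log2 fold change of 0.13 (SE 0.34) and *Kcnk6* at 0.79 (SE 0.47), both with the sign turned.

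Across the 72 members tested, 27 had an r above 0.7 with the neuronal markers over the 8 mice and 3 an r below -0.7. Of the 16 members with every female above every male, 14 were among these 27. The marker sum itself leaned to females, at 2924 to 3369 CPM against 2293 to 2995 CPM in males. Genes higher in females thus tend to a high r, and no such count was made over all genes. The highest values were 0.96 for *Kcnh7* and *Kcnh1* and 0.94 for *Kcnc1* and *Kcnma1*, and *Kcnq5* had 0.87. *Kcnk2*, *Kcnk9* and *Kcnh2*, which leaned to males, had -0.33, -0.26 and -0.41. The points of each correlation share their library, depth and sex, so these values are descriptions over 8 mice.

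**Figure D5:**
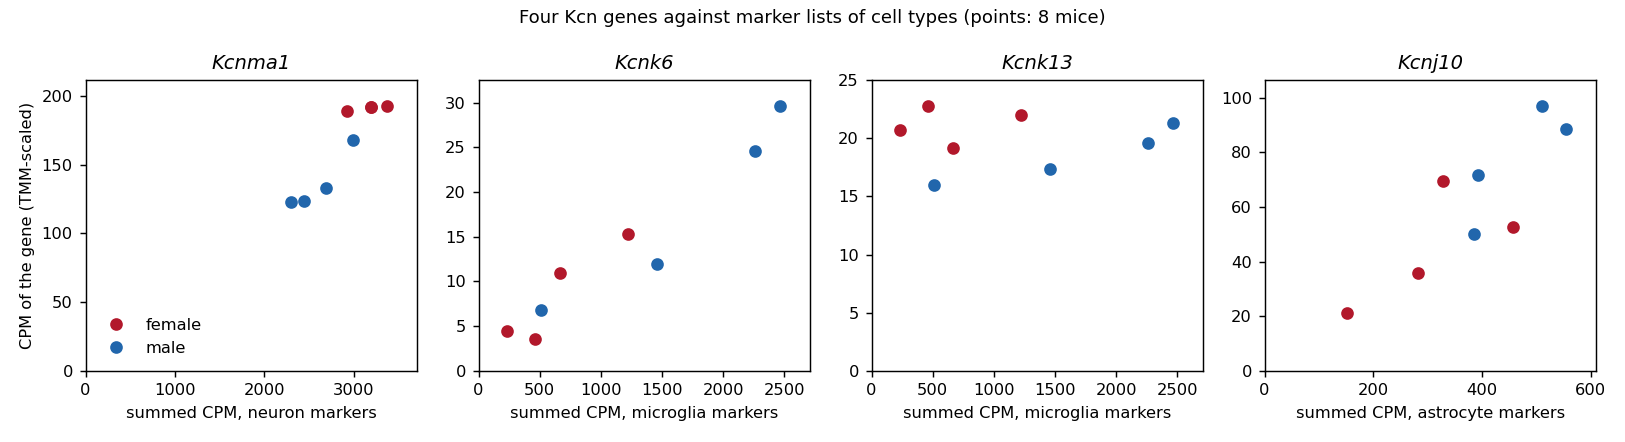
CPM of *Kcnma1*, *Kcnk6*, *Kcnk13* and *Kcnj10* against the summed CPM of neuronal, microglial, microglial and astrocyte markers in each of the 8 mice. *Kcnk6* climbs from 3.51 to 29.6 CPM with the microglial markers, whereas *Kcnk13* stays between 16.0 and 22.8 CPM.

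Genes that work with these channels without a Kcn symbol were followed as a list of 50, of which 48 were tested. In 42 the log2 fold change was above 0 (median 0.18). Over all genes tested 49.4% were above 0. By edgeR 0 of the 48 were called, with 24 at an unadjusted p under 0.05 (20.5% of all genes), while DESeq2 called 17 (6.92% of all genes). Without female 1 edgeR called 4 (2.67% of all genes) and without male 1 it called 6 (2.65% of all genes). Every female lay above every male in 14 (6.48% of all genes) and every male above every female in 2 (3.94% of all genes). These 2 were *Gnai1* and *Gnai2*, which are among the G protein subunits that couple inhibitory receptors. *Gnai1* stood at 108 to 140.2 CPM in females and 141 to 175 CPM in males (log2 fold change -0.46, SE 0.10) and *Gnai2* at 232 to 308 and 339 to 396 CPM (-0.45, SE 0.11). *Gnai3*, of the same family, stood at a log2 fold change of -0.25 (SE 0.20). Of the 14 genes for gating and trafficking of GIRK channels, 10 had a log2 fold change above 0 (49.4% of all genes). In 3 of the 14 every female lay above every male (6.48% of all genes). They were *Gabbr2* (0.40, SE 0.07, edgeR adjusted p = 0.0690), the G protein subunit *Gnao1* (0.23, SE 0.07) and *Rgs7bp* (0.50, SE 0.15).

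Around the M-channel, *Ank3*, the ankyrin that anchors M-channels at the axon initial segment, stood at 641 to 698 CPM in females and 404 to 548 CPM in males, without overlap. This gave a log2 fold change of 0.44 (SE 0.10), at an edgeR adjusted p of 0.0878. All 12 genes for closing the M-channel and supplying PIP2 had a log2 fold change above 0, with the scaffold *Akap5* (0.84, SE 0.20), the muscarinic receptor *Chrm1* (0.79, SE 0.19) and the phospholipase *Plcb1* (0.68, SE 0.18) without overlap. By edgeR 0 of the 12 were called, with 7 at an unadjusted p under 0.05. Of all genes tested, 49.4% were above 0, 6.48% separated with females higher and 20.5% had an unadjusted p under 0.05, and the 8 neuronal markers were also all above 0. The 3 calmodulin genes, whose product is a constitutive subunit of M- and SK channels, stood at 0.13 to 0.27. Among partners of Kv4 channels, *Dpp10* stood at a log2 fold change of 0.35 (SE 0.09, edgeR adjusted p = 0.10) without overlap and *Dpp6*, at 246 TPM the more abundant, at 0.09 (SE 0.09).

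Of the 22 members not tested, totals ran from 2 to 70 counts and mean TPM from 0.0358 to 0.851. Beyond those named above they include the modifiers *Kcng4*, *Kcns3* and *Kcnv2*, the inward rectifier *Kcnj1*, the BK subunits *Kcnmb2* and *Kcnmb3*, the 2-pore gene *Kcnk7* and the regulator *Kcnrg*. A count of 0 in at least 1 mouse was found in 17 members. At this depth these genes had too few counts to be tested, though *Kcnmb2* and *Kcnrg* had at least 3 counts in every mouse. This sets a limit and does not show their absence.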

How the data were processed

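tdTomato-labelled cells were sorted from the TN of 8 mice, and each gave 1 single-end library from a stranded total RNA kit. Reads were assigned by the authors to transcripts (mm10) with kallisto 0.46.2, and the submitters' processing notes also name DESeq2 2.11.40.6. The deposited values are estimated counts and TPM per transcript, in 2 blocks for each mouse, and what separates the blocks is not given. Because the deposited TPM column holds 2 blocks that each sum to 1000000, it was treated as a score and averaged over the blocks. Estimated counts were summed over blocks and over the transcripts of a gene (GENCODE M21) and rounded. Transcripts without a match held 0.429% to 0.611% of the counts.

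Females were set against males in edgeR 4.0.16 under R 4.3.3 with limma 3.58.1 (TMM factors 0.841 to 1.16, default filter by sex, quasi-likelihood test, Benjamini-Hochberg adjustment over 15194 genes, threshold 0.05), with DESeq2 1.42.0 as the alternative. Log2 CPM used a prior count of 2. With 4 mice against 4 the smallest exact permutation p is 0.0286. The test was tried on simulated counts. Python 3.11.15 was used for joining, sequences and plots. Totals of 7.83 to 17.6 counts, in units of 1000000, gave a detection limit of 0.148 to 0.458 CPM, for counting error alone.

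Members and lists were chosen with earlier results of these data known. The rule for named genes takes members past the threshold, the 5 with the smallest p per direction, the 10 highest by TPM, the highest of each subfamily, and the *Kcnq*, KATP, GIRK and non-neuronal members. Other members and partners were named after their values were seen. Of the marker lists, those for 4 endothelial, 4 mural and 3 ependymal genes, 3 GABAergic, 2 glutamatergic (1 tested), 6 ventromedial and 6 arcuate nucleus genes had median log2 fold changes of -0.24, -0.17, -0.34, 0.12, 0.54, 0.36 and -0.54. Alternatives were another test, normalization and filter, a length offset, each block alone, coding transcripts alone, *Lars2* left out, a replicate block, each mouse left out, and, added later, a neuronal covariate. Results for some members are not reported here and are left out of the figures, while counts and summaries over the family include them.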

Additional observations from a re-analysis of the deposited data

Results flagged for a closer look

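In 84 groups of 4 mice, 1 mouse was asked to stand apart from the other 3 of its sex, as the gap to its nearest neighbour over the range of the group, with Dixon's 95% critical value as a limit that chance passes in about 1 of 20 groups. It did so in 5 groups, all of males. Male 3 was the lowest male for *Kcnab2* (ratio 0.832), at 57.4 CPM against 60.0 to 60.6 CPM. Male 1 was the highest male for *Kcnc1* (ratio 0.911), at 166 CPM against 139 to 141 CPM, and for *Kcnn3* (ratio 0.908), at 54.4 CPM against 51.4 to 51.7 CPM. Male 2 was the lowest male for *Kcng1* (ratio 0.834), at 12.1 CPM against 15.1 to 15.8 CPM, and for *Kcnmb4* (ratio 0.853), at 19.98 CPM against 22.3 to 22.7 CPM. Male 1 also had the highest neuronal marker level of the males, at a mean log2 CPM of 8.18 against 7.81 to 7.99.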

How the results depend on the processing

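Of 39 single genes followed over 736 alternative values, 713 kept their direction and side of the threshold or were uncalled in both, 21 became called, 2 lost the call and 0 turned a called sign. In 14 genes, none called, the sign turned in at least 1 alternative, and with the neuronal covariate these included *Kcnd3*, *Kcne1l*, *Kcnj3*, *Kcnj9*, *Kcnj10*, *Kcnj16*, *Kcnk6*, *Kcnn3*, *Kcnu1* and *Dpp6*. *Kcnq5* kept its call in every alternative but the 2 named here. With the replicate number as a block, 0 members were called (0 higher in females), and 1 gene was called in all. In this fit 25 members stood at an unadjusted p under 0.05, where the share of all genes was not computed. *Kcnq5* had a log2 fold change of 1.83 with an edgeR adjusted p of 0.0683. Mice with the same number did not deviate together (r of -0.396, -0.156, 0.036 and 0.072 for numbers 1 to 4), and 1 of the 4 females correlated best with the male of its number. With the neuronal covariate 0 members were called (0 higher in females), and 3 genes were called in all. In that fit 10 members stood at an unadjusted p under 0.05, also with no share of all genes computed, and *Kcnq5* had a log2 fold change of 1.43. DESeq2 called 17 partner genes and 14 members, of which 13 were higher in females and 1 was higher in males. Every male lay above every female in 1 member with the length offset and in 1 with the first block alone. The share of all genes was 3.94% in the main fit and was not computed for these alternatives. Leaving out each mouse in turn gave 1 to 7 members called, 1 to 7 higher in females and 0 higher in males, 17 to 25 members with every female above every male (7.56% to 12.1% of all genes), 0 to 3 with every male above every female (4.65% to 11.3% of all genes), 0 to 6 partner genes called and a median log2 fold change of 0.18 to 0.24. On coding transcripts alone the shares of summed TPM were 27.5% for Kv1 to Kv4, 4.58% for modifiers, 7.38% for calcium- or sodium-activated genes, 14.2% for inward rectifiers and 19.1% for auxiliary genes. The cause of these shifts was not tested. Depth left 22 members untested.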
